A study of Mus musculus with 4 samples.

Results

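Cer1, Fst, Dkk1, Sfrp1 and Sostdc1 encode secreted proteins that bind or block signals of the Wnt, BMP and activin or Nodal pathways. The 5 genes were chosen by name from the 1197 genes of the authors' deposited table of cluster markers, so their presence in it is not a result. They made up 20 of its 2212 entries. An entry sets 1 numbered cluster of single cells against all other cells. The 5 genes were listed higher in 12 entries and lower in 8, and all 8 lower entries belonged to Sfrp1. That makes 60% of their entries higher, close to the 59.0% of the whole table (1305 higher, 907 lower). Of the 15 clusters, 13 listed at least 1 of them and 7 listed at least 1 as higher, while clusters 9 and 11 listed none.

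The cells were derived from mouse embryonic stem cells whose BRG1 carries a tag (BRG1 3XFLAG in the labels). BRG1 is an ATPase of the BAF chromatin remodelling complex, and the cells were differentiated toward the heart. The series held 4 libraries, 1 each of BRM KO mesoderm, WT mesoderm, BRM KO cardiac progenitors and WT cardiac progenitors, and the tag is in all of them. BRM, encoded by Smarca2, is the alternative ATPase of that complex. The table names no library and its deposited name mentions the knockout alone, so its cells may not come from all 4 libraries, and genotypes and stages were not compared.

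Antagonists of this kind shape gradients. Dkk1 occupies the Wnt co-receptors Lrp5 and Lrp6, whereas Sfrp1 carries a domain like that of the Frizzled receptors and binds Wnt ligands. Sostdc1 binds BMP ligands and also acts on Wnt co-receptors, Cer1 binds Nodal and BMP ligands, and Fst captures activin and some BMPs. In the embryo Wnt and Nodal signals help to form mesoderm, and their later restraint is part of how heart precursors are specified.

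Smarca2 had 0 entries, which checks no genotype label, since a gene that varies little between clusters is not listed. All 14 listed members of a 16-gene cardiomyocyte list were higher in cluster 2, which is called cardiomyocyte-like. By the same kind of count, clusters 1 and 4 were neural-progenitor-like (5 and 6 of 9 listed markers). Cluster 7 was nascent-mesoderm-like (5 of 7) and cluster 8 pluripotent-like (5 of 6). Cluster 10 was fibroblast-like (6 of 11 smooth muscle and fibroblast markers higher, with Myl9 4.12-fold lower). Cluster 12 was neuron-like (6 of 6) and cluster 14 extraembryonic-endoderm-like (6 of 6, beside 6 of 7 epithelial markers). Cluster 3 listed 7 of 7 epithelial, 4 of 6 endoderm and midline and 3 of 7 nascent mesoderm markers as higher, and was left unnamed because several lists applied. The remaining clusters are called by their leading genes, and these rebuilt names may differ from the study's own. None of 10 endothelial and blood markers and none of 7 neural crest markers was listed. Marker genes define the clusters that list them, the cell numbers and depth were not stated, and no value has a replicate. Every difference below is therefore a description without a test, and no pair of clusters can be said to differ beyond their spread.

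**Figure D1:**
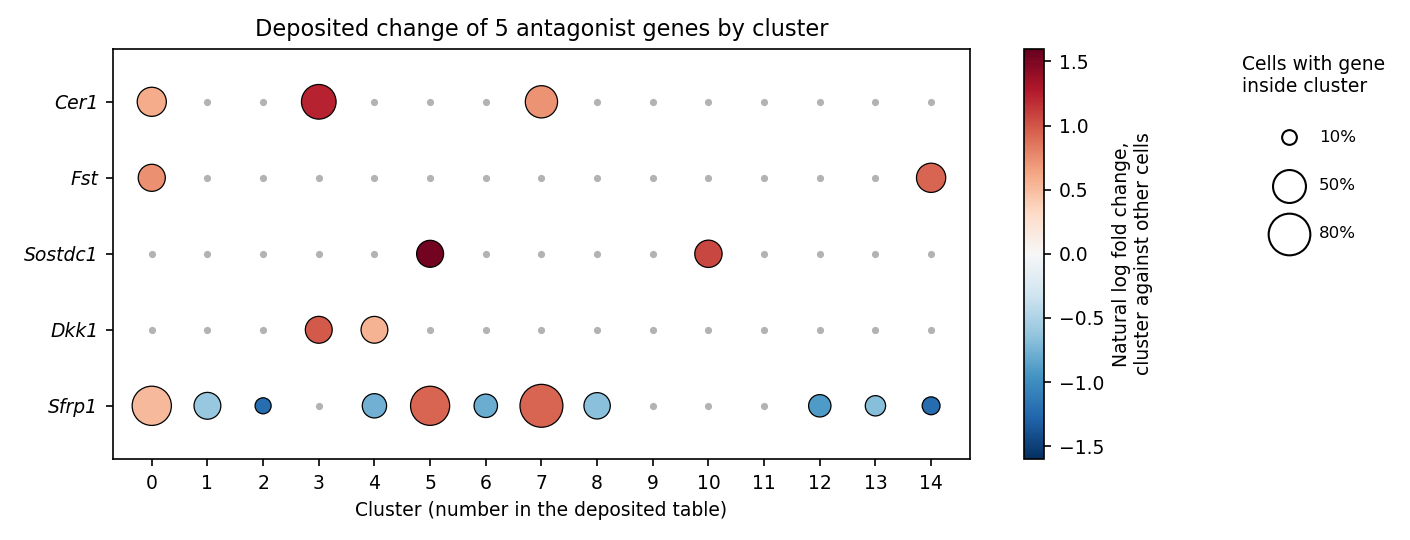
Each circle is an entry of the authors' deposited table: its colour is the natural log fold change of the cluster against all other cells, its area the percent of cells in the cluster that detected the gene, and small grey points mark clusters that do not list the gene. Cer1, Fst, Sostdc1 and Dkk1 have only higher entries, in 2 or 3 clusters each, whereas Sfrp1 has 3 higher and 8 lower entries.

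Dkk1 was listed higher in cluster 3, led by the keratin gene Krt8 and by T, the brachyury factor of the primitive streak and notochord, and in the neural-progenitor-like cluster 4. In the authors' deposited table, Dkk1 was detected in 33.3% of the cells of cluster 3 against 10.8% of all others, a 2.68-fold difference in mean expression. In cluster 4 it was detected in 33.0% of its cells against 11.3% of all others, with a 1.75-fold difference, per the authors' deposited table. The shares of detecting cells thus differed by 0.30 percentage points between the 2 clusters. To put both on 1 footing, each fold was turned into a level over the average of all cells, using cluster sizes solved from the detection shares. That level was 2.28 in cluster 3 and 1.65 in cluster 4, a ratio of 1.39 at nearly equal detection. A constant added by the authors before taking logs would bring such folds, levels and ratios of levels closer to 1. It would not change the order of the levels. The 2 clusters held 26.2% and 21.6% of all cells that detected it, and 8.46% of the cells in the 13 clusters that do not list it detected it, computed from the authors' deposited table. The cardiomyocyte genes Actc1 and Myl7 were detected in 8.60% and 8% of the cells outside cluster 2, per the authors' deposited table. Those cells include cluster 13, which lists both genes as higher. Of the other listed cardiomyocyte markers, Tpm1 had 57.7% outside cluster 2 and the rest had 0.60% (Ryr2) to 4.90% (Tnni1), per the authors' deposited table. No Dkk1 expression is claimed from its share of 8.46% in the clusters that do not list it. The part of free RNA in it, or in the shares of the other members below, was not tested.

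Cer1 was listed higher in clusters 0, 3 and 7. Cluster 0 is led by the retinoic acid binding gene Crabp1 and by Tcf15, a paraxial mesoderm factor, and lists 2 of 7 nascent mesoderm markers. Cer1 was detected in 55.3% of the cells of cluster 3 against 11.4% of all others and was 3.43-fold higher there, per the authors' deposited table. It was detected in 47.9% of the cells of cluster 7 against 13.6% of all others, and in 39.1% of the cells of cluster 0 against 11.7% of all others, per the authors' deposited table. The order of the levels over the average was the same, with 2.74 in cluster 3, 1.91 in cluster 7 and 1.61 in cluster 0. These 3 clusters held 32.9% of all cells and 94.8% of those that detected Cer1, and 1.23% of the cells of the other 12 clusters detected it, computed from the authors' deposited table. Cer1 and Sostdc1 were the members with few detecting cells elsewhere.

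Promoter windows, credited to RefSeq on GRCm38.p6, were sought for all 5 genes and matched for 2, Cer1 and Dkk1. What lies before their start sites is shown, and both genes lie on the minus strand. Cluster 3 was the one cluster that listed both. For Cer1 the 250 bases before the start are given (chr4:82885152-82885401). For Dkk1 only 30 bases are given (chr19:30549576-30549605), because GENCODE M21 starts a longer transcript 169 bases before the RefSeq start, and this stretch lies within it. Capitals mark the motif matches.
Cer1: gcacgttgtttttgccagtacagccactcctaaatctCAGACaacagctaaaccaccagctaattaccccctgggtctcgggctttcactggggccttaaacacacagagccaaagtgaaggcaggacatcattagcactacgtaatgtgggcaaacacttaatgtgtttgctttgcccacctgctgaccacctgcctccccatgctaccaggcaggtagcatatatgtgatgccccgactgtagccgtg
Dkk1: tcccatcccggCTTTGTTgtcttccctgag

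The motifs searched, on both strands of the 250 bases, were CTTTGAT and CTTTGTT for TCF/LEF, the DNA-binding factors of the Wnt pathway, and CAGAC and GTCTAGAC for SMAD, those of the BMP and activin pathways. They do not overlap one another here. Dkk1 had 1 CTTTGTT, starting 98 bases before the start site, a motif found in 5.03% of 32851 RefSeq windows of this length. Cer1 had 1 CAGAC, 213 bases before the start, and 42.2% of the windows hold that motif. CTTTGAT, in 3.21% of the windows, and GTCTAGAC, in 0.167%, were in neither.

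Sfrp1 was the most widely listed of the 5, with entries in 11 clusters, a number that 12 of the 1197 genes reached or passed. It was detected in 45.2% of all cells, against 16.0% for Cer1, 14.8% for Fst, 13.1% for Dkk1 and 5.02% for Sostdc1, computed from the authors' deposited table. It was listed higher in clusters 0, 5 and 7. In cluster 7 it was detected in 84.8% of its cells against 42.3% of all others, was 2.53-fold higher and ranked 5 among 40 higher genes, per the authors' deposited table. In cluster 5, led by Sostdc1 and the collagen genes Col9a1 and Col3a1, it was detected in 70.5% of its cells against 42.9% of all others, with a 2.55-fold difference, per the authors' deposited table. In cluster 0 it was detected in 70.9% of its cells against 40.5% of all others, but the difference was 1.68-fold, per the authors' deposited table. The level over the average was 2.28 in cluster 7, 2.25 in cluster 5 and 1.52 in cluster 0, so clusters 5 and 0 differed 1.48-fold in level at detection shares 0.40 percentage points apart.

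Sfrp1 was lowest in 2 clusters of unlike kind. In the cardiomyocyte-like cluster 2 it was detected in 11.9% of its cells against 50% of all others and was 3.38-fold lower, per the authors' deposited table. In the extraembryonic-endoderm-like cluster 14 it was detected in 14.7% of its cells against 45.3% of all others and was 3.41-fold lower, per the authors' deposited table. The levels over the average were 0.325 and 0.294. By level, the neuron-like cluster 12 was next, with 23.1% of its cells against 45.6% of all others and a level of 0.406, computed from the authors' deposited table. Clusters 1, 4, 6, 8 and 13 had levels from 0.475 to 0.583, and detection inside of 33.2%, 27.2%, 25.3%, 32% and 19.0%, per the authors' deposited table. Cluster 6 is led by Pcp4l1, Tpbg and Wnt1. Cluster 13, where 13 of 14 listed cardiomyocyte markers were higher, had a smaller share of detecting cells than clusters 4, 6 and 12 and a slightly higher level, 0.508 against 0.487, 0.475 and 0.406. The 4 clusters that do not list Sfrp1 (3, 9, 10 and 11) had 52.7% detecting cells and a level of 0.952 as a whole. The 3 higher clusters held 31.0% of all cells and 50.7% of those that detected Sfrp1, while the 8 lower ones held 50.6% and 27.9%.

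**Figure D2:**
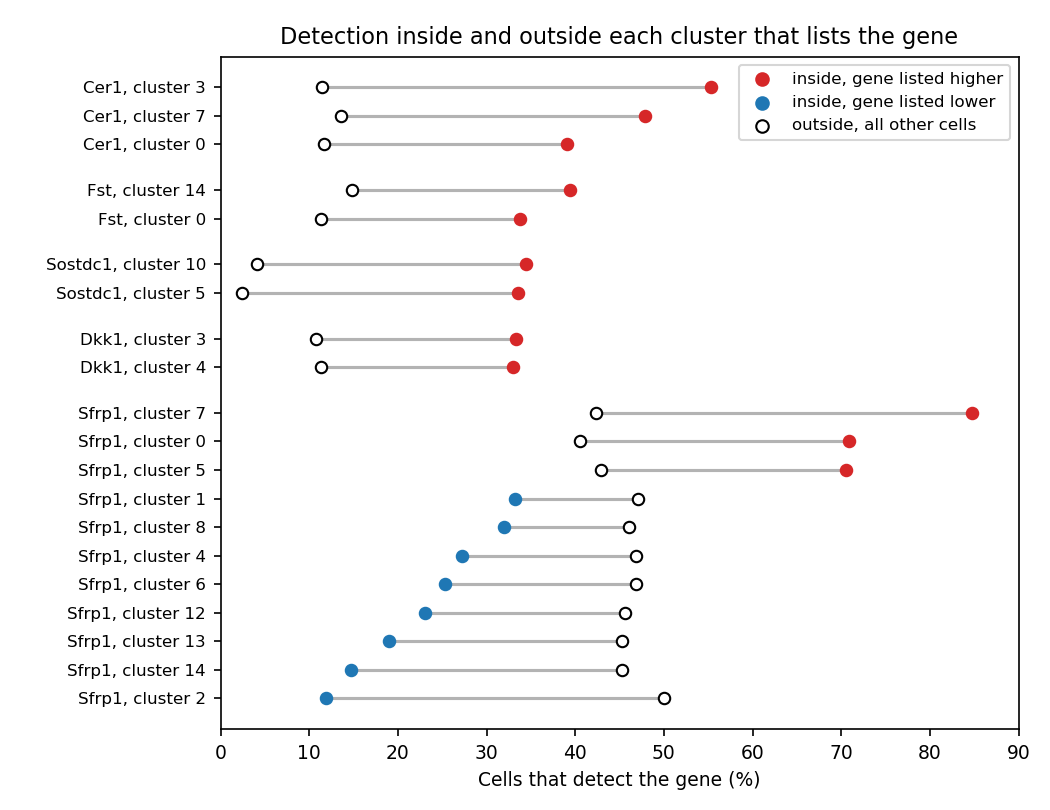
For each entry, the filled point is the percent of cells inside the cluster that detected the gene (red where the gene is listed higher, blue where lower) and the open point that of all other cells, per the authors' deposited table. Sostdc1 has the lowest shares outside, 2.40% and 4.10%, and Sfrp1 spans 11.9% to 84.8% inside.

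Sostdc1 was the leading gene of cluster 5, first of 49 higher genes. In the authors' deposited table it was 4.68-fold higher there and was detected in 33.5% of its cells against 2.40% of all others. In the fibroblast-like cluster 10 its expression was 2.91-fold higher, with detection in 34.4% of its cells against 4.10% of all others, per the authors' deposited table. The share inside was thus slightly lower in cluster 5 than in cluster 10, by 0.90 percentage points, while the level over the average was 3.56 in cluster 5 and 2.76 in cluster 10. Cluster 5 held 56.8% of all cells that detected Sostdc1 and cluster 10 held 20.1%, computed from the authors' deposited table. In the other 13 clusters 1.31% of cells detected it. Clusters 5 and 10 share the listed collagen genes Col3a1, Col1a2 and Col1a1, which were higher in both, and cluster 11, which lists Col3a1 and Col1a2 as higher, had no Sostdc1 entry.

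Fst was listed higher in clusters 0 and 14. It was detected in 33.8% of the cells of cluster 0 against 11.3% of all others and was 2.07-fold higher there, per the authors' deposited table. In cluster 14 it was detected in 39.4% of its cells against 14.8% of all others and was 2.53-fold higher, per the authors' deposited table. Cluster 14 holds 0.291% of all cells and 0.772% of those that detected Fst, and cluster 0 holds 15.5% and 35.4%. Of the 5 genes, Fst had the largest part of its detecting cells, 63.8%, in clusters that do not list it, where 11.2% of cells detected it, computed from the authors' deposited table. The smallest change listed anywhere in the table was 0.50 on the natural log scale, and the smallest of the larger detection shares was 25.1%. The authors' settings for listing an entry were not stated, and a limit on p could also leave entries out, so the detecting cells may be uneven among the 13 clusters.

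**Figure D3:**
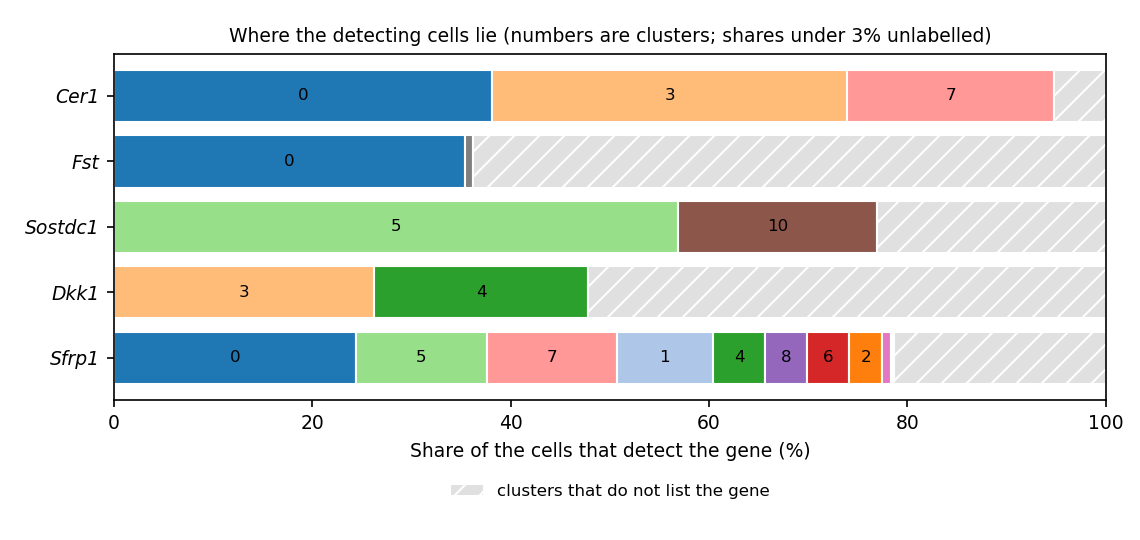
Each bar splits all cells that detected a gene by the cluster that holds them, in percent, computed from the authors' deposited table, with the clusters that do not list the gene hatched. Clusters 0, 3 and 7 hold 94.8% of the Cer1 cells and clusters 5 and 10 hold 76.9% of the Sostdc1 cells, whereas 63.8% of the Fst cells and 52.2% of the Dkk1 cells lie in clusters that do not list the gene.

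Cluster 0 listed 3 of the 5 genes as higher (Cer1, Fst and Sfrp1), where 3.09% of all genes in the table were listed higher. Clusters 3, 5 and 7 listed 2 each, Cer1 with Dkk1, Sfrp1 with Sostdc1, and Cer1 with Sfrp1, where 5.26%, 4.09% and 3.34% of genes were listed higher. Clusters 4, 10 and 14 listed 1 each, Dkk1, Sostdc1 and Fst, where 1.92%, 6.85% and 26.2% of genes were listed higher. Sfrp1 was the 1 member listed lower in clusters 1, 2, 4, 6, 8, 12, 13 and 14, where 2.59%, 25.7%, 2.42%, 2.17%, 4.26%, 3.84%, 2.01% and 9.19% of genes were listed lower. Clusters 2 and 14 list many genes, so an entry there sets a gene less apart than an entry in cluster 4. Clusters 4 and 14 each listed 1 member higher and Sfrp1 lower.

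**Figure D4:**
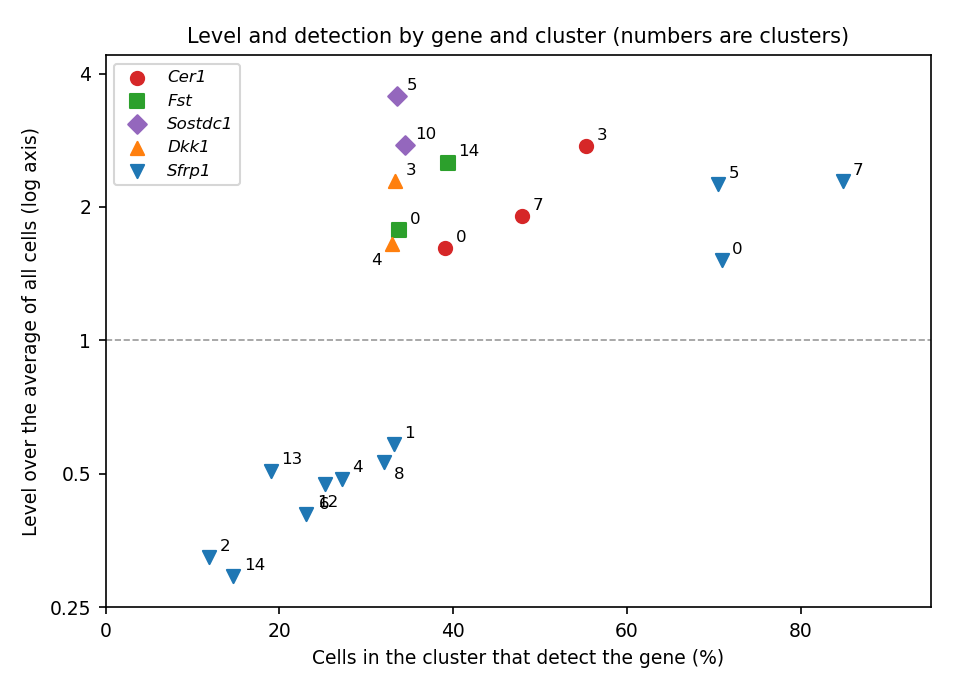
Each point is a gene in a cluster that lists it, labelled with the cluster number: the x axis is the percent of cells in the cluster that detected the gene and the y axis its level over the average of all cells, on a log axis with a dashed line at 1. Dkk1 in clusters 3 and 4, Sostdc1 in clusters 5 and 10, and Sfrp1 in clusters 5 and 0 have nearly the same detection and different levels.

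Of 132 other genes of these pathways, 29 were listed. The share of all measured genes that were listed is not known here, so these counts are not read as many or few. The 5 members were chosen from the listed genes and are no measure for them. Of 31 further antagonists, 4 were in the table: Bambi, a decoy receptor for BMP and activin, Frzb, a Wnt-binding relative of Sfrp1, Shisa2, which holds back Wnt and FGF receptors, and Fstl1, a follistatin-like protein. Frzb joined Cer1 and Sfrp1 in cluster 7, 1.71-fold higher, and Shisa2 joined Sostdc1 and Sfrp1 in cluster 5, 2.94-fold higher and detected in 34.6% of its cells against 7.20% of all others, per the authors' deposited table. Bambi was higher in cluster 9, by 4.06-fold, and in cluster 2, by 2.77-fold, clusters that list none of the 5 members as higher, per the authors' deposited table. Fstl1 was 1.81-fold higher in cluster 9, and 2.21-fold lower in cluster 14, where Fst was higher, per the authors' deposited table.

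Of the ligands and receptors of Wnt, 3 of 35 were listed (Wnt1, Fzd2 and Gpc3), and of those of BMP with activin and Nodal, 6 of 29. Lrp5, Lrp6 and Nodal had 0 entries, which does not show that they were absent. No entry of any gene had a larger detection share under 25.1% or a natural log change under 0.50. The Frizzled receptor gene Fzd2 was 1.65-fold higher in cluster 5, beside the Wnt-binding Sfrp1, and Cfc1, a Nodal co-receptor, was 2.82-fold higher in cluster 3, beside Cer1, per the authors' deposited table. Cfc1 was detected in 38.6% of the cells of cluster 3 against 2.20% of all others, per the authors' deposited table.

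Of 21 BMP and activin or Nodal targets, 12 were listed. The BMP targets Id1, Id2 and Id3 were all lower in clusters 0 and 7, and Id2 was 3.62-fold lower in cluster 3, which makes Id2 lower in each of the 3 clusters that list Cer1, per the authors' deposited table. Of all 1197 genes, 45, 34 and 36 were listed lower in clusters 0, 7 and 3. All 3 Id genes were also lower in cluster 8 and higher in cluster 1, which list none of the 5 antagonists as higher. In cluster 5, Id2 was 3.34-fold and Id1 1.77-fold higher, per the authors' deposited table. Id3 was higher in clusters 4 and 6 and lower in clusters 2 and 14, Id1 was higher in cluster 9 and Id2 in cluster 11. A link between Cer1 and the Id genes was not tested. The activin or Nodal targets Lhx1 and Foxa2 were higher in cluster 3, Lhx1 also in cluster 7 and Foxa2 also in cluster 6. Of 17 Wnt targets, 5 were listed. In the Dkk1 cluster 3, T and Sp5 were higher while Ccnd1 and Ccnd2 were lower, and in the Dkk1 cluster 4, Ccnd2 was 2.75-fold and Ccnd1 1.74-fold higher, per the authors' deposited table. Nkd1, a Wnt feedback gene, was 2.33-fold higher in the Sostdc1 cluster 10, per the authors' deposited table.

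Genes with the most similar set of entries (same cluster and same direction, shared over either) were looked up over the 15 clusters. The closest to Sfrp1 were Crabp1, with 9 shared entries (69.2% of those in either set), Hmga2, an architectural chromatin protein gene, with 7 (63.6%), and the interferon-induced Ifitm1, with 9 (60.0%). Crabp1 parted from Sfrp1 in clusters 3 and 11, where it was 2.77-fold and 2.11-fold lower and Sfrp1 was not listed, and it had no entry in clusters 5 and 12, per the authors' deposited table. Ifitm1 was 3.61-fold lower in cluster 5, where Sfrp1 was 2.55-fold higher, per the authors' deposited table. For Sostdc1, 9 genes had exactly its 2 entries, the closest in fold being Emp3, Limch1 and Nrep (listed under its older name D0H4S114). They were 2.40-fold, 2.70-fold and 2.26-fold higher in cluster 5 against 4.68-fold for Sostdc1, per the authors' deposited table. In cluster 10 they were 2.89-fold, 2.28-fold and 2.71-fold higher against 2.91-fold, per the authors' deposited table. Emp3 and Nrep thus had the larger fold in cluster 10, unlike Sostdc1 and Limch1. For Cer1, 8 genes shared 66.7% of entries, led by Irx3, Mogat2 and Col23a1, each higher in clusters 0 and 7 and not listed in cluster 3. Pdcd4 was the 1 gene with exactly the entries of Fst, and 237 genes, Pdcd4 included, shared 50% or more of entries. Among those at 50%, Ddah1 and Snx3, higher in cluster 14 alone, were the closest in fold. No gene had exactly the entries of Dkk1, and 16 genes tied at 50%, of which Calca, Arl4a and Tln2, higher in cluster 3 alone, were the closest in fold.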

How the data were processed

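Single cells were profiled by 10x droplet sequencing in 4 libraries, 1 per group. Cell Ranger, Seurat and the mm9 build were used, per the submitters' processing notes. Versions, cell filters, doublet handling and clustering settings were not stated in what was used here, and reads and count matrices were not used here. The authors deposited 1 table of 15 clusters against all other cells. Its fold change is a natural log value per the file headers. Over 3 genes whose entries cover nearly all cells, base e returned 96.3% to 99.6% of the expression for 96.3% to 99.7% of the cells. The authors' deposited fraction of detecting cells is printed as a percent. The authors' deposited p-value compares cells, which are not replicates, and served in 1 alternative.

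Cluster sizes were solved by least squares over 407 genes with 2 or more entries, since each entry of a gene must return the same share of all cells (residual SD 0.0228 percentage points, checked on simulated clusters). With fold F and size s, the level over the average is F/(1 - s + sF). Any constant the authors added before logs was not stated, and would make folds and levels of weakly detected genes too close to 1. In the clusters that do not list Cer1, its level was 0.495 with 1.23% detecting cells, against 16.0% of all cells. In those that do not list Sostdc1, its level was 0.695 with 1.31%, against 5.02% of all cells. Whether a constant brought these levels near 1 was not tested. Folds and levels are therefore not read as plain expression ratios.

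The members and lists were chosen with earlier results of these data known. Named genes were the 5 members, the 3 most similar genes of each (predicted models, clones, mitochondrial and ribosomal genes left out, ties broken by closeness of fold), listed pathway genes and the leading genes of clusters. Of 1197 names, 1120 matched a current and 1186 a current or older RefSeq symbol. Python 3.11.15, numpy 2.4.6, pandas 2.3.3 and matplotlib 3.10.9 were used. Alternatives changed the thresholds, the genes behind the sizes, the cells averaged over, the names matched and the constant.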

Additional observations from a re-analysis of the deposited data

How the results depend on the processing

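No paired analysis was possible because each group had 1 library and no test was made. The counts of 12 higher and 8 lower entries became 7 and 5 with natural log changes of 0.75 or more, 3 and 2 with 1 or more, and 4 and 1 where at least 50% of cells had to detect the gene inside or outside. They stayed within 1.5 times with an adjusted p-value of at most 1e-10 and were the same when direction was read from detection. With the largest constant the values allow, an alternative chosen after seeing the data that puts the lowest clusters at 0, the highest level over the average became 4.45 for Cer1 (cluster 3), 6.51 for Dkk1 (cluster 3), 11.3 for Fst (cluster 14), 9.42 for Sostdc1 (cluster 5) and 2.82 for Sfrp1 (cluster 7). These are upper limits. Without cluster 2 in the average, Sfrp1 in cluster 7 was at 2.08. Changing the sizes or the constant cannot by construction move a level across the average. Leaving out cluster 2 could, for Sfrp1 alone, and no Sfrp1 level changed side. Sizes from genes with 3 or more entries gave cluster 14 a share of 0.813% of the Fst cells. Pathway entries numbered 13 higher and 13 lower, against 46 and 35 in all, with natural log changes of 1 or more, a stricter threshold that removes entries by construction. Depth and cell numbers were not stated, and counting error was not worked out. Clusters 13 and 14 hold 0.497% and 0.291% of all cells, so their values rest on the fewest cells.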
